A study of Mus musculus with 3 samples.

Results

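Dividing neutrophil precursors are the bone marrow cells that make neutrophil granule proteins while still in the cell cycle. They were selected here by their own transcripts. A cell needed Camp, Ngp, Fcnb and Chil3 together at 2% or more of its UMIs (unique molecular identifiers, which count captured RNA molecules), at least 2 detected genes of the proliferation set Mki67, Top2a, Cdk1, Birc5 and Ube2c, and no Il1b UMI. Of 22376 cells kept from mouse bone marrow, 1403 met these conditions. The fusion libraries gave 523 and 442 of them and the wild-type library 438.

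The title of the study concerns ZNF384 fusion oncoproteins, and the data are 3' single-cell RNA sequencing of marrow in droplets. The fusion group (2 libraries, replicates 1 and 2) carried the Ep300-Znf384-V5-HA genotype, a knock-in joining the histone acetyltransferase gene Ep300 to the zinc finger gene Znf384 with V5 and HA tags. The wild-type group was 1 library. All were from male mice aged 6 weeks, and each mixed 5000 live cells of whole marrow with 5000 live cells left after removal of lineage-positive cells, following red cell lysis. This mixing means that shares are of a pooled, enriched preparation and not of native marrow. The labels do not say which cells express the fusion.

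Neutrophils develop from granulocyte progenitors through ordered waves of granule synthesis. Promyelocytes make the primary granule enzymes, such as myeloperoxidase and neutrophil elastase. Myelocytes, which still divide, make secondary granule proteins such as lactoferrin and cathelicidin. Later cells leave the cell cycle and add tertiary granule enzymes and the receptors needed to enter the blood. The transcription factor C/EBP epsilon drives the secondary granule genes and cell cycle exit.

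The libraries held 8122 to 9354 barcodes and 93262028 to 111836603 UMIs, and 7213 to 7625 cells were kept in each. The precursors summed to 6209706 and 6509733 UMIs in the fusion libraries and 6003447 in wild type. Their median depth was 11240 and 13535.5 UMIs per cell in fusion and 12705.5 in wild type, and their median mitochondrial share was 1.88% and 1.74% against 1.23%. Pairs of libraries shared 19 to 23 barcodes. Predicted doublets made up 7.46% and 11.8% of the fusion precursors and 7.31% of the wild-type ones, and they were left in except where stated.

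The selected cells carried the 4 markers of the label. After thinning each cell to 3000 UMIs, Camp (the cathelicidin antimicrobial peptide) was detected in 100% of the precursors of each library. Chil3, a chitinase-like protein of immature granulocytes, was detected in 99.4% and 99.1% of fusion precursors and 99.1% of wild-type ones. Fcnb (ficolin-B, a lectin of myelocytes) was detected in 69.2% and 76.3% of fusion precursors and 73.1% of wild-type ones, and Mki67 in 84.3% and 76.3% against 77.6%. In erythroid cells of the same libraries, taken as background because they should not make Fcnb, its share was 0.296% and 1.09% in fusion and 0.631% in wild type. Detection of Camp was less specific. After thinning, a Camp UMI was found in 39.7% and 27.5% of fusion T and NK cells and 27.8% of wild-type ones. These values describe the selection and test nothing.

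Along the path, the precursors sat between the dividing promyelocyte stage and non-dividing immature neutrophils. The promyelocyte stage had Mpo, Elane, Prtn3 and Ctsg together at 2% or more of UMIs, and a granule selection under 2%. Non-dividing cells met the same granule selection as precursors, with none of the 5 proliferation genes. Elane thus helps define the promyelocyte stage, so its high level there follows from the selection, while Ltf is in neither selection. All stage levels are given in plain CPM, the share of a population's summed UMIs on the CPM scale, without further normalization. Elane, the elastase gene, had 13236 and 12131 CPM at the dividing promyelocyte stage in fusion and 11137 in wild type, 2141 and 1671 against 1692 in the precursors, and 34.5 and 17.1 against 46.7 in non-dividing cells. Ltf, the lactoferrin gene, had 46.3 and 12.2 CPM at the promyelocyte stage in fusion and 6.50 in wild type, 5766 and 5525 against 7222 in the precursors, and 13517 and 13074 against 13089 in non-dividing cells. Fcnb was highest in the precursors in each library, at 851 and 1144 CPM in fusion and 1789 in wild type. It is itself a granule selection gene, so its rise over the promyelocyte stage follows in part from the selection.

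The precursors varied among themselves in stage. The share of UMIs from the primary granule genes Mpo, Elane, Prtn3 and Ctsg had a median of 0.0173% and 0.0136% per cell in fusion and 0.0270% in wild type, yet the highest cell reached 5.39% and 6.01% against 3.63%. All 5 proliferation genes were detected in 54.3% and 55.0% of fusion precursors and 48.9% of wild-type ones. The 4 selection genes made up a median of 10.6% and 9.25% of UMIs in fusion and 9.15% in wild type. Just inside the threshold, at 2 to 3% of UMIs, lay 21 and 31 fusion cells and 18 wild-type cells. Just outside, at 1 to 2%, lay 31 and 44 fusion cells and 33 wild-type cells with the same proliferation and Il1b conditions.

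Dividing precursors took up similar shares of the kept cells in both genotypes, and a slightly lower share of the granule-selected cells was dividing in fusion. The precursors were 6.94% of kept cells (exact 95% Clopper-Pearson interval 6.37 to 7.54%) in fusion replicate 1, 6.13% (5.59 to 6.71%) in fusion replicate 2 and 5.74% (5.23 to 6.29%) in wild type. The fusion mean was 6.53% ± 0.573 (SD, n = 2), 1.14 times wild type (two-sided exact permutation p = 0.667). The interval of replicate 2 overlapped that of wild type, and the interval of replicate 1 lay above it. The intervals cover counting error only, since cells of 1 library are not replicates.

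**Figure D1:**
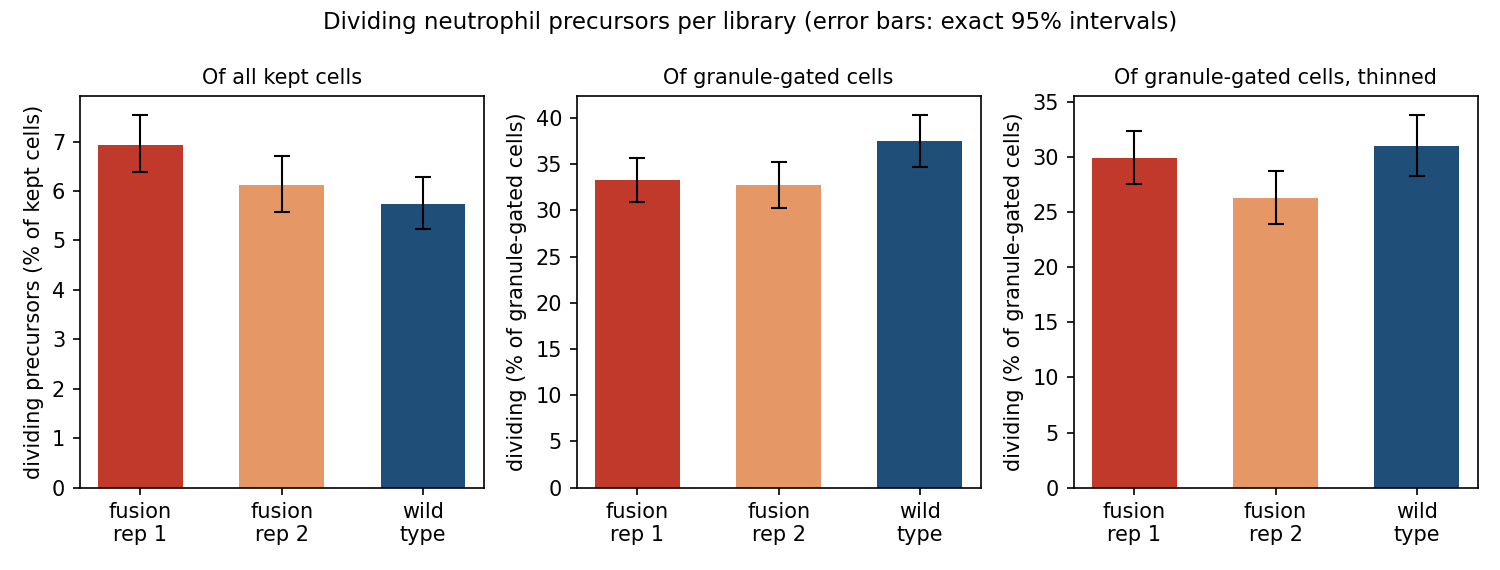
Dividing neutrophil precursors in each library, as a percentage of all kept cells (left), of all granule-selected Il1b-negative cells (middle), and of those cells after thinning to 3000 UMIs (right). Bars are single libraries and error bars exact 95% intervals; the middle panel shows both fusion libraries, at 33.3% and 32.7%, below wild type at 37.5%, and after thinning both fusion intervals overlap that of wild type.

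Among granule-selected Il1b-negative cells, 33.3% (30.9 to 35.7%) and 32.7% (30.2 to 35.3%) were dividing in fusion, against 37.5% (34.7 to 40.3%) in wild type, a ratio of 0.881 (exact permutation p = 0.333, the smallest that 2 libraries against 1 allow). After thinning each cell to 3000 UMIs the ratio was 0.908 (exact permutation p = 0.667). Cells with more primary than secondary granule UMIs were 1.34% and 2.04% of precursors in fusion and 1.83% in wild type (exact permutation p = 1). With 3 libraries, none of these tests could pass 0.05.

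The targeted genes were read first. Ep300 (chromosome 15, 81585351 to 81652077, GRCm38 as for all positions here) had 71.5 and 57.3 CPM in fusion precursors, against 101 in wild type. Zfp384, the mouse gene for ZNF384 (chromosome 6, 125009145 to 125037870), had 190 and 126 UMIs, against 101. CPM of precursors here and below are on effective library sizes (TMM, trimmed mean of M values), except where UMIs, plain CPM or a joint fit are named. Neither gene passed the test described next (−0.65 ± 0.18 on the log2 scale, SE, edgeR adjusted p = 0.289 for Ep300, and 0.39 ± 0.24, adjusted p = 0.615 for Zfp384). The counts do not separate fusion from normal transcripts, so these genes do not check the labels.

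Counts were summed over the precursors of each library and tested with the edgeR quasi-likelihood test. Of 10465 genes tested, 13 were called higher and 15 lower in fusion at a Benjamini-Hochberg adjusted p under 0.05, which is 0.268% of the genes (0.124% higher and 0.143% lower). Over all genes tested, 36.3% had both fusion libraries above wild type and 36.9% had both below. At an unadjusted p under 0.05 there were 1113 genes. With 2 libraries against 1 the spread comes from the fusion pair, and genotype cannot be told apart from the wild-type library itself. When precursors with 10 or more UMIs of another lineage were left out, an alternative chosen after seeing the data, 33 genes were called higher and 62 lower, including 25 of the 28. DESeq2 kept 22 of the 28, and after thinning each cell to 3000 UMIs, which leaves fewer counts, 1 gene was called and it was Prg2, described below with its single cell.

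**Figure D2:**
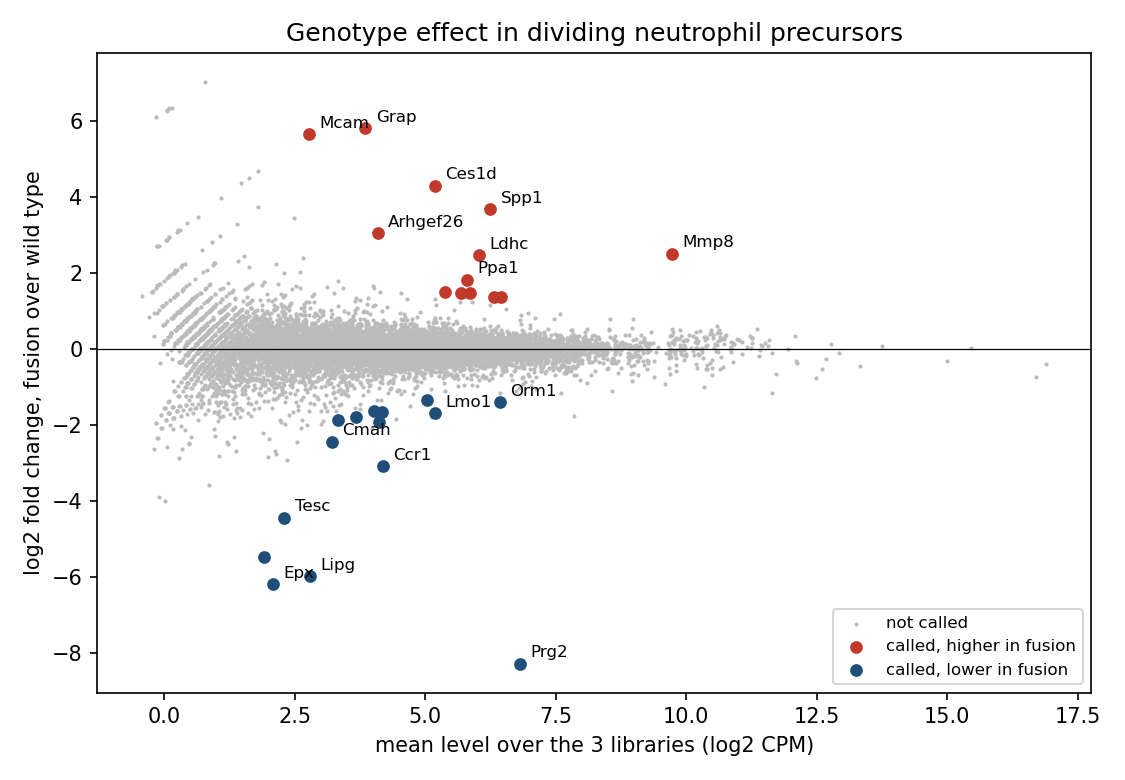
Log2 fold change of fusion over wild type (vertical axis) against the mean level over the 3 libraries (horizontal axis, log2 CPM) for the 10465 genes tested in dividing neutrophil precursors. Coloured points are the 13 genes called higher and the 15 called lower by edgeR; Mmp8 is the most abundant called gene.

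The genes called higher in fusion precursors included a granule collagenase and several genes at or near 0 in wild type. Mmp8 (chromosome 9, 7558456 to 7568485), the neutrophil collagenase stored in granules, had 1066 and 1274 CPM in fusion and 206 in wild type. Both fusion libraries were well above wild type and close to each other (log2 fold change 2.51 ± 0.23, edgeR adjusted p = 0.0164). Thinned to 3000 UMIs, an Mmp8 UMI was found in 43.1% and 41.6% of fusion precursors and 15.6% of wild-type ones. The share in erythroid cells, taken as background, was 4.22% and 5.87% in fusion and 2.21% in wild type. It lay below the precursors' share in each library and was likewise higher in fusion. The part of free RNA in the precursors' values was not tested.

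Spp1 (chromosome 5, 104435118 to 104441050) encodes osteopontin, a secreted adhesion protein. It had 120 and 98.1 CPM in fusion precursors and 8.47 in wild type, 3.69 ± 0.24 higher on the log2 scale (edgeR adjusted p = 0.00493). An Spp1 UMI was present in 59.8% and 56.8% of fusion precursors and 8.90% of wild-type ones before thinning, and in 30.02% and 26.4% against 1.89% after it. In erythroid cells the thinned share was at most 0.724%.

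Grap (chromosome 11, 61653265 to 61672784) encodes an adaptor protein related to Grb2 that links receptors to Ras signalling. It had 20.5 and 22.4 CPM in fusion precursors, from 142 and 141 UMIs, and 0.361 CPM from 2 UMIs in wild type. The ratio of plain CPM was 66.8, with an exact counting interval of 18.3 to 554 (edgeR adjusted p = 0.00578). Some 20.8% and 22.4% of fusion precursors held a Grap UMI, against 0.457% in wild type. Wild-type B cells and T and NK cells did hold Grap, at 46.6 and 71.1 plain CPM. Mcam (chromosome 9, 44134469 to 44142727), the adhesion molecule CD146, had 62 and 71 UMIs in fusion and 1 in wild type, a ratio of 62.8 with an interval of 11.1 to 2498 (edgeR adjusted p = 0.0321). The Mcam call was lost under DESeq2, with doublets removed and after thinning (9 of 12 alternatives called it, highest adjusted p = 0.737).

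Ces1d (chromosome 8, 93166068 to 93197838), a carboxylesterase best known from fat and liver, had 58.4 and 48.4 CPM in fusion and 2.70 in wild type (a log2 fold change of 4.29 ± 0.27, edgeR adjusted p = 0.00493). Wild type lay far below both fusion libraries. Ldhc (chromosome 7, 46861203 to 46878142), the lactate dehydrogenase subunit known from testis, had 85.8 and 94.4 CPM in fusion and 16.2 in wild type (2.47 ± 0.19, adjusted p = 0.0067). Ldhb, the heart-type subunit, was called lower, at 8.53 and 10.6 CPM in fusion and 29.6 in wild type (−1.63 ± 0.21, adjusted p = 0.0433). The Ldhb call was lost under DESeq2, with doublets removed, at a granule threshold of 5% and after thinning. Ldha, the most abundant subunit of the family here and named after its values were seen, had 340 and 353 CPM against 309 (0.17 ± 0.17, adjusted p = 0.759).

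The remaining named genes called higher were moderate in size. Ppa1, the inorganic pyrophosphatase, had 74.5 and 71.6 CPM in fusion and 20.6 in wild type, a log2 fold change of 1.83. Erythroid cells themselves held more Ppa1, at 185 and 150 plain CPM in fusion and 151 in wild type, and their part in the precursors' values was not tested. Arhgef26 had 23.6 and 24.6 CPM against 2.88. Dok2, a docking protein below tyrosine kinases, had 51.6 and 55.1 CPM against 18.8, and Marveld1, a membrane protein, 69.0 and 62.1 against 23.6. The transcripts without an assigned function, 9830166K06Rik, Gm21188 and Gm34084, completed the 13 calls, with log2 fold changes of 1.48, 1.37 and 1.36. Grap, Mcam, Ces1d, Spp1 and Ldhc had been listed because earlier results on these samples showed them higher in neutrophils, so their direction here is not independent evidence.

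**Figure D3:**
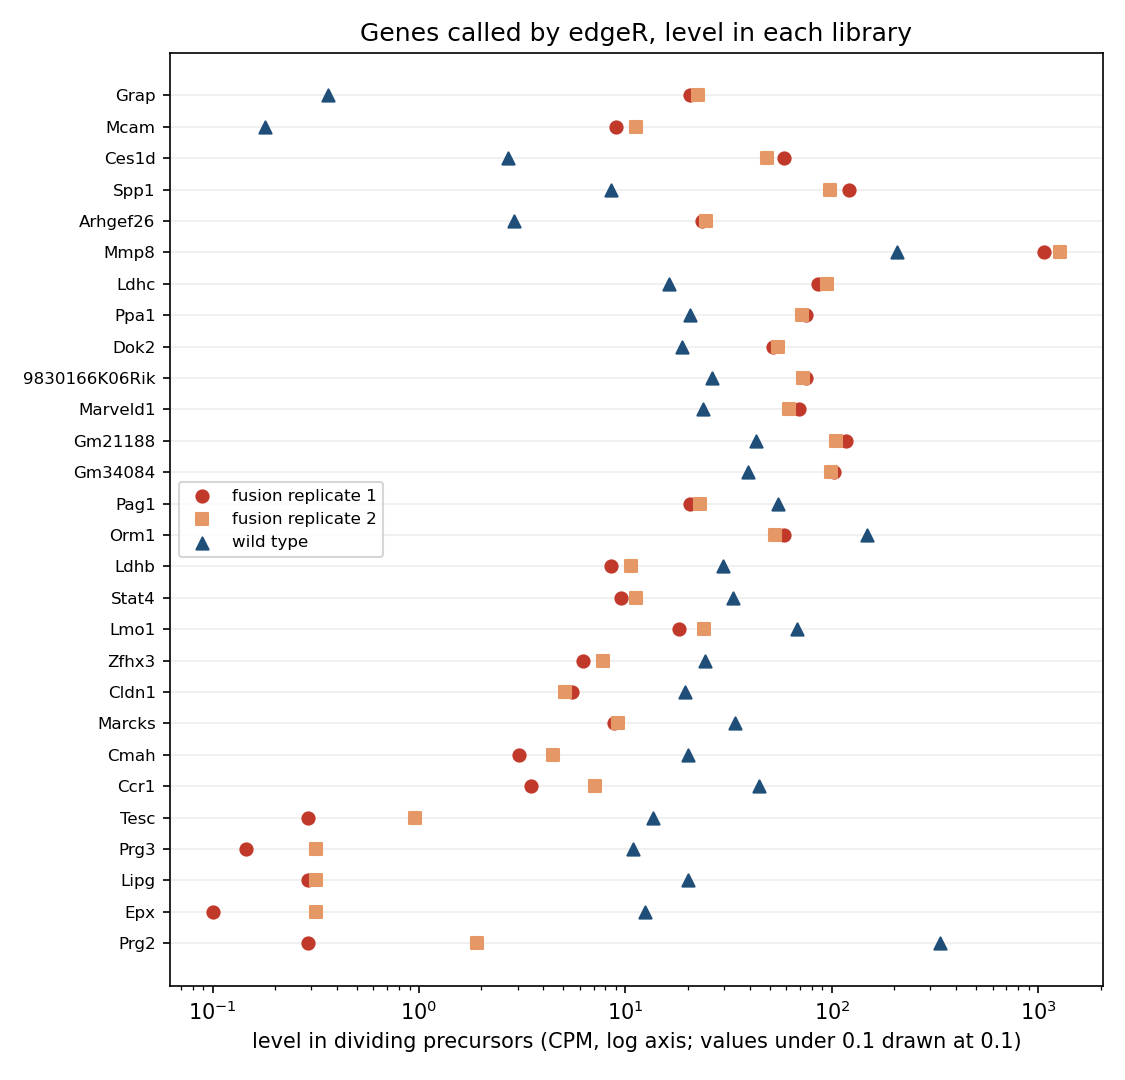
Level of each of the 28 called genes in the 3 libraries (horizontal log axis, CPM), ordered by log2 fold change. The fusion replicates lie close together for most genes; Grap, Mcam and Ces1d are near 0 in wild type, and Prg2, Epx and Prg3 near 0 in fusion.

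The 250 bases before the transcription start of 4 called genes are given as RefSeq lists them (GRCm38.p6), since these genes moved in the same cells and mark both directions. Mcam (chr9:44134408-44134657, plus strand), Spp1 (chr5:104434861-104435110, plus strand) and Mmp8 (chr9:7558179-7558428, plus strand) rose, and Lmo1 (chr7:109175208-109175457, minus strand) fell. RefSeq starts Mcam further downstream than the annotation behind the gene span above, so most of its bases here lie within that span. Capitals mark matches on either strand to AAAAAA (an adenine run), GAGGAA (the core bound by the myeloid factor PU.1) and TTGCNNAA (the C/EBP form).
Mcam: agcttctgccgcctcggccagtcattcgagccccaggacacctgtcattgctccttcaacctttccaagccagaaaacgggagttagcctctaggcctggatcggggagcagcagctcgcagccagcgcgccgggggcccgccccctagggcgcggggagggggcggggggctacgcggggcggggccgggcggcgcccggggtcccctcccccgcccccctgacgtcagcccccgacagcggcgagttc
Spp1: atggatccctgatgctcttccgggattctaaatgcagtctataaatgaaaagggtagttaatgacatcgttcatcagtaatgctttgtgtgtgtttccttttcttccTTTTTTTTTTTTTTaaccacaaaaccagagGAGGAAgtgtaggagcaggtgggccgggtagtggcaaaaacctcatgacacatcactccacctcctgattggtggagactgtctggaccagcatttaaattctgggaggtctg
Mmp8: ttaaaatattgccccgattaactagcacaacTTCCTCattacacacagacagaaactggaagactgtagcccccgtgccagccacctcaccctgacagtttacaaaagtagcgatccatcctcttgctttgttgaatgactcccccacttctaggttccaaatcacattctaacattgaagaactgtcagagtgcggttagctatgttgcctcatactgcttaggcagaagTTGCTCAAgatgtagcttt
Lmo1: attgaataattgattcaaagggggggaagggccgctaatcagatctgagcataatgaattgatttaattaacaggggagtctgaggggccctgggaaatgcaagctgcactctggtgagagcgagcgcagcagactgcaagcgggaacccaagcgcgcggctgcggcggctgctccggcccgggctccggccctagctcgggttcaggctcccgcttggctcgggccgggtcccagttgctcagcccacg
Spp1 held a run of T, which is an adenine run on the other strand, and 1 GAGGAA. Mmp8 held 1 GAGGAA on the other strand and 1 TTGCNNAA. Over all 27025 promoters of that length, 17.7% held AAAAAA, 23.1% GAGGAA and 9.55% TTGCNNAA, and over the 8257 of tested genes the shares were 13.1%, 22.7% and 7.35%. Among called genes with a listed promoter, these were found in 3, 3 and 3 of 10 higher genes and in 2, 1 and 0 of 10 lower genes. A match describes the letters only.

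The genes called lower in fusion precursors included a chemokine receptor, an acute-phase protein and transcription regulators. Ccr1 (chromosome 9, 123962124 to 123968692), a receptor for inflammatory CC chemokines, had 3.47 and 7.14 CPM in fusion and 44.2 in wild type (a log2 fold change of −3.07 ± 0.30, edgeR adjusted p = 0.0198). Before thinning, a Ccr1 UMI was found in 3.82% and 6.56% of fusion precursors, against 33.8% of wild-type ones. Cmah (chromosome 13, 24327404 to 24477377), the hydroxylase that makes N-glycolylneuraminic acid, had 3.04 and 4.44 CPM in fusion and 20.2 in wild type (−2.44 ± 0.29, adjusted p = 0.0321). Both genes were on a list drawn from earlier results on these samples. The 9 genes of that list summed to 111 and 191 plain CPM in fusion precursors and 501 in wild type. In erythroid cells they summed to 15.3 and 41.8 against 58.4, also lower in fusion, and the part of free RNA was not tested.

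Lipg, the endothelial lipase gene, had 2 UMIs in each fusion library and 112 in wild type, where 17.6% of precursors held 1 or more (edgeR adjusted p = 0.00517). Tesc, a calcium-binding regulator, had 2 and 6 UMIs in fusion and 75 in wild type (a log2 fold change of −4.43 ± 0.49, adjusted p = 0.0294). Its fold change was −3.80 without fusion replicate 1 and −5.44 without replicate 2. Neither gene exceeded 1 CPM in fusion, and the most UMIs that any wild-type cell held was 5 for Lipg and 3 for Tesc.

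Orm1 (chromosome 4, 63344560 to 63348163), the acute-phase protein orosomucoid, had 58.6 and 53.0 CPM in fusion and 147 in wild type (a log2 fold change of −1.40 ± 0.16, edgeR adjusted p = 0.0294). Lmo1 (chromosome 7, 109138572 to 109175207), a LIM-only cofactor of transcription, had 18.2 and 24.0 CPM against 67.6 (−1.68 ± 0.19, adjusted p = 0.0294). Stat4, the transcription factor below interleukin-12, had 9.55 and 11.3 CPM against 33.0. Zfhx3, a zinc finger and homeodomain factor, had 6.22 and 7.78 CPM against 24.2. Marcks, a substrate of protein kinase C, had 8.82 and 9.21 against 33.9, and Cldn1, a tight junction protein, 5.50 and 5.08 against 19.5. Pag1, a membrane anchor for the kinase Csk, had 20.5 and 23.0 CPM against 55.0. For each of these genes both fusion libraries lay below wild type and closer to each other than to it. DESeq2 did not call Pag1, Stat4, Zfhx3 or Cldn1, and with doublets removed Lmo1 and Pag1 were not called.

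Prg2, Epx and Prg3, granule protein genes of eosinophils, were also called lower, and their wild-type level came almost wholly from 1 cell. Of 1853 Prg2 UMIs in wild-type precursors, 1851 lay in that cell. Prg2 had 2 and 12 UMIs in fusion. Epx had 0 and 2 UMIs in fusion and 69 in wild type, 68 of them in 1 cell, and Prg3 had 1 and 2 against 60. The log2 fold change of Prg2 was −7.44 without fusion replicate 1 and −10.06 without replicate 2, and that of Epx −5.20 and −9.27. Without cells of other lineages the log2 fold change of Prg2 was 1.61, and it was 1.60 with predicted doublets removed. These 3 calls rest almost wholly on 1 cell, and they are counted among the 28.

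Granule genes were called singly, with Orm1 lower and Mmp8 higher, against 0.268% called over all genes. Of 12 primary granule genes, 0 were called by edgeR, 4 had an unadjusted p under 0.05, and the median log2 fold change was −0.14, beside −0.003 over all genes tested. For 6 of the 12 both fusion libraries lay below wild type and for 4 both lay above. Mpo, the myeloperoxidase gene, had 275 and 277 CPM in fusion and 593 in wild type (−1.10 ± 0.16, edgeR adjusted p = 0.0579), and it was called under 8 of 12 alternatives. Elane had 1923 and 1726 CPM against 1832 (−0.01). Of 18 secondary granule genes, 1 was called, Orm1, and the median was −0.47. Both fusion libraries lay below wild type for 13 of them, against 36.9% of all genes. An unadjusted edgeR p under 0.05 was found for 9, against 1113 of all 10465 genes tested. Ltf had 5179 and 5708 CPM against 7818 (−0.52, adjusted p = 0.511), and Chil1, a chitinase-like protein, 445 and 421 against 252 (0.78, adjusted p = 0.186).

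Of 20 genes listed under tertiary granules and maturation, 1 was called, Mmp8, upward. Its place in this list was a choice of the lists used, and the secondary granule counts and median leave it out. Both fusion libraries lay below wild type for 16 of them, against 36.9% of all genes. An unadjusted edgeR p under 0.05 was found for 13, and the median was −0.54. Mmp9, a gelatinase gene, had 156 and 169 CPM in fusion and 230 in wild type (−0.51, edgeR adjusted p = 0.359). Ly6g, the surface antigen of mouse neutrophils, had 144 and 131 CPM against 309 (−1.17 ± 0.16, adjusted p = 0.0513). Il1r2, a decoy receptor for interleukin-1, had 7.96 and 7.30 CPM against 22.5 (−1.56, adjusted p = 0.0513). The summed mature neutrophil markers were 762 and 732 plain CPM in fusion precursors and 1034 in wild type, and their part in these values was not tested.

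S100a8 and S100a9, which form calprotectin, differed widely between the fusion libraries and were not called. S100a8 had 56548 and 118844 CPM in fusion and 144671 in wild type. Per cell, the pair made up a median of 18.9% and 27.7% of UMIs in fusion and 30.5% in wild type. Fcnb likewise had 765 and 1182 CPM in fusion and 1936 in wild type, and Wfdc21, a WAP domain protein, 1416 and 3131 against 5097. Fusion replicate 1 was the lowest library for each of these genes.

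No regulator of the lineage was called. Among 31 transcription factors tested the median log2 fold change was −0.12, and 6 had an unadjusted edgeR p under 0.05. Both fusion libraries lay below wild type for 17 of them and above it for 9, against 36.9% and 36.3% of all genes. Cebpe, the secondary granule regulator, had 729 and 698 CPM in fusion and 689 in wild type (0.05 ± 0.18). Spi1, which encodes PU.1, had 340 and 372 CPM against 356, and Gfi1, a repressor needed for neutrophil commitment, 30.2 and 33.2 against 37.1. Myb, a factor of cycling progenitors, had 146 and 140 CPM against 97.7 (0.55, edgeR adjusted p = 0.317). The 6 NADPH oxidase genes, the machinery of the oxidative burst, had 0 edgeR calls, 1 unadjusted p under 0.05 and a median of −0.08. For 5 of the 6 both fusion libraries lay below wild type, and for 0 both lay above. The membrane subunit Cybb had 1598 and 1452 CPM against 1614.

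Among 17 growth factor and homing receptors, 1 was called, Ccr1, and 14 had both fusion libraries below wild type, against 36.9% of all genes (median −0.58). An unadjusted edgeR p under 0.05 was found for 10. Csf3r, the receptor for granulocyte colony-stimulating factor, had 66.4 and 65.4 CPM in fusion and 90.2 in wild type (−0.45, edgeR adjusted p = 0.373). Kit, the stem cell factor receptor, had 20.1 and 23.8 CPM against 38.8 (−0.82, adjusted p = 0.157). Csf1r, the monocyte growth factor receptor, had the largest positive log2 fold change of the list, at 8.82 and 9.21 CPM against 3.43 (1.39, edgeR adjusted p = 0.222).

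The cell cycle lists had no edgeR call in either direction, and none of the S phase or G2 and M phase genes had an unadjusted p under 0.05. Of 35 S phase genes the median was −0.01, with a range of −0.34 to 0.32, and of 38 G2 and M phase genes the median was −0.11, with a range of −0.28 to 0.29. Both fusion libraries lay below wild type for 21 of the 38 and above it for 5, against 36.9% and 36.3% of all genes. For the 35 S phase genes these counts were 11 and 13. Mcm2, a helicase subunit of replication origins, had 72.3 and 63.5 CPM in fusion and 57.2 in wild type. Ccnb1, the mitotic cyclin, had 85.9 and 83.0 CPM against 92.9. Since the cells were chosen by 5 proliferation genes, these lists describe cycling cells in both genotypes. Of 24 cyclins, kinases and inhibitors, 0 were called by edgeR and 3 had an unadjusted p under 0.05. Cdkn1a, the p21 inhibitor, had 2.31 and 3.65 CPM in fusion and 12.4 in wild type (−2.06 ± 0.35, edgeR adjusted p = 0.0946).

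**Figure D4:**
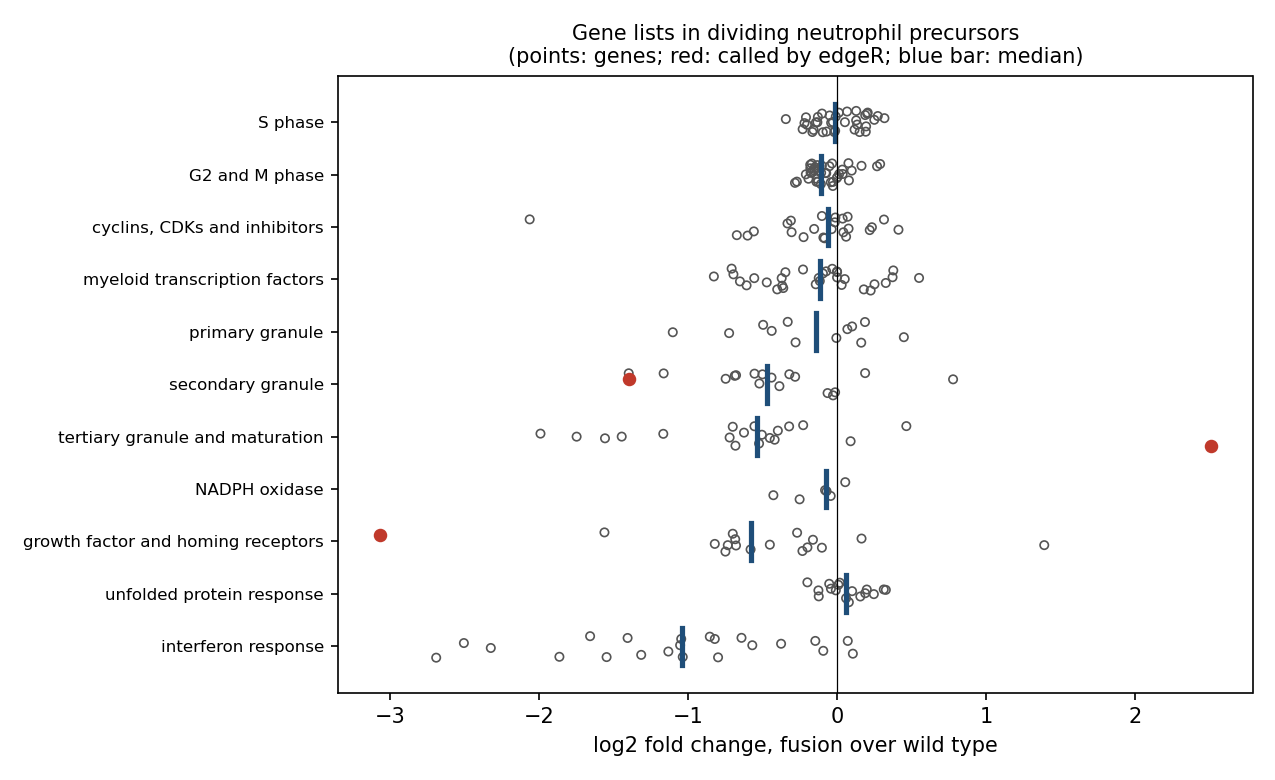
Log2 fold change of fusion over wild type (horizontal axis) for the tested genes of 11 lists in dividing neutrophil precursors. Open points are genes not called, red points called genes and blue bars list medians; the S phase genes lie between −0.34 and 0.32, and the interferon response median is −1.04 with no call.

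Interferon response genes lay lower in fusion without a call. Of 22 tested, 19 had both fusion libraries below wild type, against 36.9% of all genes, and the median was −1.04, but 0 were called (14 had an unadjusted edgeR p under 0.05). Isg15, a ubiquitin-like protein, had 4.48 and 6.03 CPM in fusion and 19.1 in wild type (−1.86 ± 0.27, adjusted p = 0.0553). Rsad2, the antiviral enzyme viperin, had 1.01 and 2.06 CPM against 9.92 (−2.69, adjusted p = 0.0844). The abundant Ifitm2, a membrane restriction factor, had 327 and 318 CPM against 300. In erythroid cells Isg15 had 6.85 and 8.62 plain CPM in fusion and 22.5 in wild type, the same order outside the neutrophil lineage. Thinned to 3000 UMIs, an Isg15 UMI was found in 1.19% and 2.07% of fusion precursors and 3.77% of wild-type ones, below the 2.30% and 2.82% of fusion and 5.52% of wild-type erythroid cells, and the part of free RNA in these values was not tested.

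Of 17 unfolded protein response genes, 0 were called by edgeR in precursors, 0 had an unadjusted p under 0.05 and the median was 0.06. Hspa5, the chaperone BiP, had 345 and 337 CPM in fusion and 272 in wild type (0.33, edgeR adjusted p = 0.558). In non-dividing cells 5 of the 17 were called higher, against 1.09% of all genes there, and the fusion effect on Hspa5 was smaller in the dividing cells by 1.07 ± 0.15 on the log2 scale, a difference that passed the test (adjusted p = 1.3e-08) and did so under all 11 alternatives run for it.

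Further genes stood apart by size without a call. Gpr137c, Kcnn4 (a calcium-activated potassium channel) and Scnn1a (a sodium channel subunit) had log2 fold changes of 1.48, 1.32 and 1.32, each at an edgeR adjusted p of 0.0513. Inhba, the activin A subunit, had 75.5 and 77.6 CPM in fusion and 166 in wild type, and Lpcat1, an enzyme of phospholipid remodelling, 138 and 116 UMIs against 240, both at an adjusted p of 0.0513. Milr1, an inhibitory receptor, and Acpp, an acid phosphatase, had −1.10 and −1.05.

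Transcripts of other lineages differed between libraries within the selected cells. Summed eosinophil markers were 5.31 and 6.14 plain CPM in fusion precursors and 335 in wild type, the last from the cell described above. Basophil and mast cell markers summed to 25.1 and 463 plain CPM in fusion and 164 in wild type. In plain CPM, erythroid markers summed to 322 and 817 against 551, monocyte markers to 72.0 and 101 against 114, and B cell markers to 33.2 and 19.0 against 28.2. Precursors with at least 3 monocyte genes numbered 8 and 19 in fusion and 17 in wild type, and without them 71 genes were called, among them all 28.

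The same fit in non-dividing immature neutrophils (712 and 638 fusion cells, 473 wild-type cells) called 96 genes higher and 132 lower of 8806, or 2.59% (1.09% higher and 1.5% lower). Of the 28 genes called in precursors, 21 were called there too, which is 75% of the precursor calls and 9.21% of the non-dividing calls. All 24 that could be tested had the same sign. Both populations come from the same libraries, so the overlap is a description. The non-dividing group had fewer UMIs and more cells, and the 2 counts of calls were not compared by a test.

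**Figure D5:**
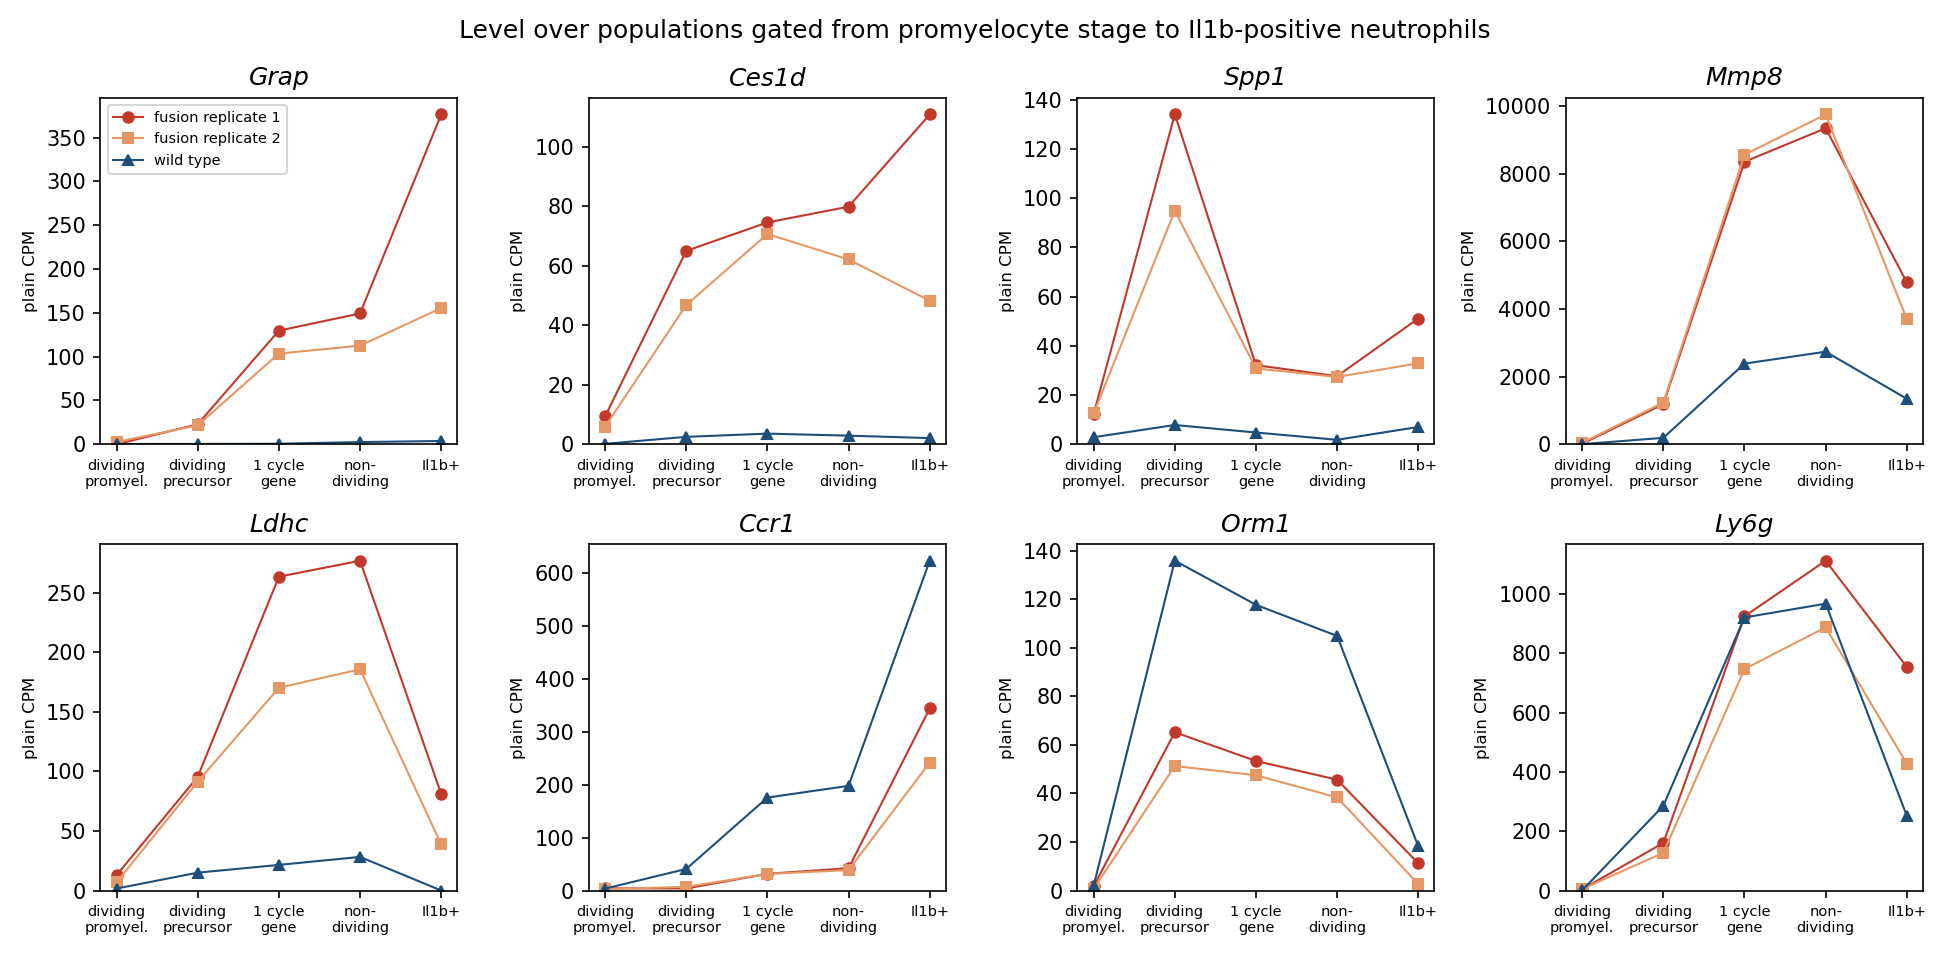
Level of 8 genes (vertical axes, plain CPM) in 5 populations (horizontal axes), with 1 line per library. The populations are placed in an assumed stage order, from dividing promyelocyte-stage cells to Il1b-positive neutrophils. The Il1b-positive group was not selected against dividing cells. Spp1 peaks in the dividing precursors of both fusion libraries, Mmp8 and Ldhc in the later non-dividing cells, and Grap in Il1b-positive neutrophils.

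The genes higher in fusion followed different courses along the path, in groups of unequal size. The promyelocyte stage held 83 and 137 fusion cells and 263 wild-type cells, so low values there rest on few counts. The Il1b-positive group held 341 and 351 against 725. Spp1 peaked in the dividing precursors, at 134 and 94.9 plain CPM in fusion and 7.83 in wild type, against 27.7 and 27.4 in fusion and 1.81 in wild-type non-dividing cells. Mmp8 was low at the promyelocyte stage (15.8 and 43.1 CPM in fusion, 4.38 in wild type) and reached 9348 and 9755 against 2738 in non-dividing cells. Grap had 0 and 2.63 CPM at the promyelocyte stage in fusion and 0.302 in wild type, and 376 and 155 against 3.73 in Il1b-positive neutrophils. The Il1b-positive group had no proliferation condition and is not a pure terminal stage. Its G2 and M phase genes summed to 1622 and 2731 CPM in fusion and 1416 in wild type, against 387 and 301, and 324, in non-dividing cells. Its megakaryocyte markers summed to 48.6 and 1609 CPM in fusion and 39.7 in wild type. Among lower genes, Ccr1 had 42.2 and 38.6 CPM in fusion and 198 in wild type in non-dividing cells.

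Whether the fusion effect differed between dividing and non-dividing cells was tested by the interaction of genotype and division, with library as a term. Of 10447 genes, 91 were called (32 higher and 59 lower, 0.871%, of which 0.306% higher and 0.565% lower), against 7 under DESeq2, 7 after thinning and 26 with the stricter cell filter. The effect on Mmp8 was larger in the dividing cells by 0.82 ± 0.13 on the log2 scale (edgeR adjusted p = 1.38e-06), called under 10 of 11 alternatives and not after thinning (0.49 to 0.89 over the alternatives). For Ly6g the difference was −1.08 ± 0.14 (adjusted p = 3.01e-10), called under all 11 alternatives. Its non-dividing cells had 999 and 934 CPM in fusion and 1034 in wild type in their own fit. For Spp1, Grap, Ces1d, Ldhc, Ccr1 and Orm1 the difference did not pass the test, with adjusted p of 0.351 or more.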

How the data were processed

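Bone marrow of 2 fusion libraries and 1 wild-type library was profiled with 10x Genomics chemistry version 3.1, per the labels. The authors deposited unnormalized counts of UMIs for 32285 genes in each barcode. Cell Ranger 5.0.1, bcl2fastq 2.20.0.422 and the mouse build GRCm38 are named in the submitters' processing notes. The matrix headers name Cell Ranger 5.0.0. Intron handling and ambient RNA removal are not given in the sources used here. Groups came from the genotype labels, and replicates were numbered by order only.

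Cells needed a minimum of 1000 UMIs and 400 detected genes, and no more than 10% of UMIs from mitochondrial genes. The selection of precursors, the gene lists and the tests were chosen with earlier results of these data known. Counts were summed per library and population, since cells are not replicates. Genes kept by filterByExpr were tested in edgeR 4.0.16 (R 4.3.3) by the quasi-likelihood test with TMM normalization and Benjamini-Hochberg adjustment over all genes tested. The fusion pair alone gave the 1 residual degree of freedom of each fit, and wild type was assumed to vary like it. The labels do not say that libraries came from separate animals, so p-values measure spread between these samples, which may be technical. On simulated data for the precursors, 70% of genes changed by 1 on the log2 scale and 100% of those changed by 2 were recovered, with 8 unchanged genes called among 10298. The changed genes all had a mean of at least 20 CPM, and the spread was a smooth trend with level, equal in both groups. Spread particular to a gene or to the wild-type library was left out, so these shares do not give the recovery in the real data. DESeq2 1.42.0 was an alternative. Doublets were predicted with scrublet in scanpy 1.11.5 at an expected rate of 0.06. Erythroid background cells held a UMI of Klf1, Car1, Gata1 and Epor. Shares have exact 95% intervals for counting error only. Ratios with 1 to 3 counts in a group have exact counting intervals.

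Named genes were those called with a mean of at least 20 CPM, up to 10 per direction by fold change, with free places for genes apart by size. Size meant that both fusion libraries lay 1 log2 unit or more from wild type, and 3 or more times as far from it as from each other. The 3 strongest differences of effect per direction and up to 4 genes per list were added. Called genes outside this rule, and Ldha, Cebpe, Spi1, Gfi1, Myb, Elane, Ltf, Csf3r, Ccnb1, S100a8 and Ifitm2, were named after their values were seen. Alternatives covered tool, normalization, gene filter, equal cell numbers, thinning, doublets, selection thresholds, other-lineage cells and leaving out each fusion library.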

Additional observations from a re-analysis of the deposited data

Results flagged for a closer look

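For each gene here the fusion over wild type difference was called unequal in dividing precursors and in non-dividing immature neutrophils of the same libraries, by the edgeR interaction test, and its CPM below are those of that joint fit. Values are the effect in dividing minus that in non-dividing cells, on the log2 scale. Stfa2l1, a stefin gene of neutrophils, differed by 3.02 ± 0.44 (edgeR adjusted p = 9.51e-08), with 3.81 and 11.2 CPM in fusion and 1.41 in wild type among dividing cells, and 56.9 and 87.5 against 115 among non-dividing cells. This gene, like Prtn3, Ly6g and Hspa5 below, was called under all 11 alternatives run for it. Its relative Cstdc4 differed by 2.04 (called under 4 of 11), with 0.636 and 6.02 CPM in fusion and 1.89 in wild type among dividing cells. Crip1, a LIM domain protein, differed by 1.68 (7 of 11), and fusion replicate 2 (81.3 CPM) lay above wild type (51.7) while replicate 1 (26.3) lay below it.

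Prtn3, the proteinase 3 gene of primary granules, differed by 1.16, with 939 and 881 CPM in fusion and 1286 in wild type among dividing cells and 40.7 and 25.3 against 104 among non-dividing cells. Mmp8 differed by 0.82 (10 of 11). In the other direction, Acot1, an acyl-CoA thioesterase, differed by −2.50 (9 of 11), with 57.2 and 69.2 CPM in fusion and 4.41 in wild type among non-dividing cells. Scnn1a differed by −1.65 (7 of 11), Ly6g by −1.08, Hspa5 by −1.07 and Pag1 by −0.76 (4 of 11). Prss34, a basophil protease, differed by −2.23 (3 of 11), with 2.54 and 224 CPM in fusion and 67.1 in wild type among dividing cells. Prg2 differed by −10.56, and 1 wild-type cell held nearly all of its counts. For Cstdc4, Crip1 and Prss34 the fusion libraries lay on either side of wild type among dividing cells, so no common fusion effect is shown there. The Prg2 difference was not called with doublets removed or without cells of other lineages.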

How the results depend on the processing

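The count of 28 genes called in precursors was 274 with no gene filter, 45 with equal cells per library, 71 without cells with monocyte genes, 65 with no condition on Il1b, 95 without cells of other lineages, 115 with the stricter cell filter and 1 after thinning to 3000 UMIs. It stayed within 1.5 times under DESeq2 (25), its size factors (27), doublets removed (25), a granule threshold of 5% (37) and late-stage cells alone (42). Thinning cost 25 named calls, Mmp8, Spp1 and Grap among them, each with its sign kept, and left Prg2. DESeq2 lost 6 (Pag1, Mcam, Stat4, Ldhb, Zfhx3 and Cldn1), doublet removal 4 (Lmo1, Pag1, Mcam and Ldhb), the 5% threshold 1 (Ldhb) and DESeq2 size factors 1 (Gm21188). Prg2 reversed to 1.60 with doublets removed, 1.44 at the 5% threshold and 1.61 without cells of other lineages, which drop the cell that held its counts. In non-dividing cells the 228 calls became 60 under DESeq2, 139 with no gene filter, 441 with doublets removed and 452 with no condition on Il1b. After thinning to 3000 UMIs they numbered 237, with 173 of the 228 among them. The 91 differences became 7 under DESeq2, 44 with its size factors, 36 with no gene filter, 7 after thinning, 36 with doublets removed, 51 without cells with monocyte genes and 26 with the stricter cell filter. The differences for Cstdc4 and Prss34 reversed to −0.67 and 0.79 with doublets removed, neither called. Thinning leaves fewer counts, but the cause of these changes, those under thinning included, was not tested.

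The ratio of the dividing share among granule-selected cells, 0.881, was 0.838 at a 5% threshold, 0.894 with 3 of 5 proliferation genes, 0.898 with the stricter filter, 0.868 with doublets removed, 0.867 without cells of other lineages and 0.908 after thinning. Without 1 fusion library it ranged from 0.873 to 0.888, the precursor share ratio from 1.07 to 1.21 and the early-stage ratio from 0.733 to 1.11. Leaving out a fusion library leaves 1 against 1, so no count of calls was possible. The stricter filter and the removal of other lineages were chosen after seeing the data. No paired analysis was possible because the labels give no replicate numbers shared between the groups. Depth limits genes near 1 CPM, at about 6 UMIs per library.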

Other observations

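Other gene groups in the precursors gave no call. Of 9 lysine acetyltransferase genes, the family of Ep300, the median log2 fold change was −0.03 and 0 were called by edgeR, with 1 at an unadjusted p under 0.05. Of 17 immediate early and heat shock genes, 0 were called, 3 had an unadjusted edgeR p under 0.05 and the median was −0.21. For 10 of the 17 both fusion libraries lay below wild type and for 4 both lay above. Fosb, an AP-1 subunit, had 1.01 and 3.97 CPM in fusion precursors and 9.02 in wild type (−1.88, adjusted p = 0.355). Apoe, the apolipoprotein E gene, had 59.0 and 66.2 CPM in fusion and 26.3 in wild type (1.25 ± 0.17, adjusted p = 0.0513) and was picked after its values were seen.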
